A study of Mus musculus with 29 samples.

Results

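The 38 genes examined here encode the proteins that bring glucose into the cell, split it to pyruvate and lactate, and run the pentose phosphate pathway. They were listed by name, with no threshold on their values, and were found among the 24732 entries of the RNA-seq tables: 5 transporters, 16 enzymes from glucose to pyruvate, 4 Pfkfb enzymes, 6 genes that set the fate of pyruvate, 3 genes of the oxidative and 4 genes of the non-oxidative pentose phosphate pathway. The measurement was RNA-seq of pro-B cells, the earliest committed B cell progenitors, sorted from mouse bone marrow of the strain C57BL/6. The comparison was between 3 libraries of wild-type cells and 2 libraries of Pax5-/- cells, which lack the B cell commitment factor Pax5. The remaining libraries of the 8 are of Pax5+/+ Meox2-Cre pro-B cells (3 libraries of pooled cells, mice of 3 weeks). In these cells the Cre recombinase is expressed from the Meox2 locus, and their label names no Pax5-Jak2 fusion. A supplementary sample list of the study gives the Pax5 genotype of these Meox2-Cre cells differently from the labels, so they are named here only as labelled. Ages of the wild-type and Pax5-/- mice were not given in the sources used here. All cells were sorted as B220+Kit+, but the gates differed between the genotypes, and that of the Pax5-/- cells also asked for Ly6D. An effect of the genotype and an effect of the gate therefore cannot be told apart in these libraries.

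Glycolysis turns glucose into pyruvate in a chain of cytosolic steps, many of which can be served by several isozymes encoded by separate genes. Hexokinase traps glucose as glucose-6-phosphate, phosphofructokinase is the committed step, and lactate dehydrogenase and the pyruvate dehydrogenase complex compete for the pyruvate. The pentose phosphate pathway leaves from glucose-6-phosphate: its oxidative arm yields NADPH, and its non-oxidative arm exchanges ribose-5-phosphate, the sugar of nucleotides, with glycolytic intermediates. Pax5 is known in B-lymphoid cells as a repressor of glucose uptake and energy supply, which gives the background for asking how these genes stood in its absence.

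The libraries matched their labels. Pax5 transcripts stood at 342 to 391 TPM (transcripts per 1000000 transcripts, a level per length) in wild-type and at 39.1 and 43.0 TPM in Pax5-/- libraries, a log2 fold change of -3.17 ± 0.11 (SE, adjusted p = 3.14e-06, limma). Ly6d, used in the Pax5-/- gate, was at 190.0 to 270.5 TPM in wild-type and at 2258 and 3033 TPM in Pax5-/- libraries. Of 10 B lineage markers 8 were lower in Pax5-/- cells, and of 10 proliferation markers 8 were lower as well, with summed levels of 2681 to 3084 TPM in wild-type and 1927 to 2111 TPM in Pax5-/- libraries. Summed erythroid markers stood at 73.5 to 186 TPM and at 8.0 to 59.7 TPM (3 of 4 tested were lower), summed myeloid markers at 45.9 to 252 TPM and at 55.4 to 83.7 TPM (2 of 7 were lower), and summed T cell markers at 1.03 to 1.80 TPM and at 4.32 to 6.76 TPM (Cd4 alone was above 1 TPM). Natural killer markers summed to at most 9.34 TPM, megakaryocyte markers to at most 15.1 TPM and plasmacytoid dendritic markers, mostly the broadly expressed Bst2, to 83.1 to 124 TPM in wild-type and 122 to 173 TPM in Pax5-/- libraries. Ribosomal protein genes took 10.8% to 12.3% of the wild-type and 15.7% to 17.2% of the Pax5-/- libraries. The part of any of these differences in the results below was not tested. In bulk RNA, fewer cells of a type and less RNA per cell cannot be told apart.

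In wild-type pro-B cells the members spanned a wide range of levels. Of these, 2 had a mean above 1000 TPM, 11 lay between 100 and 1000 TPM, 15 between 10 and 100 TPM, 8 between 1 and 10 TPM and 2 below 1 TPM. The most abundant were Pgls, the lactonase of the oxidative pentose phosphate arm (1282 ± 166 TPM, SD, n = 3), and Pkm, pyruvate kinase (1164 ± 120 TPM), followed by Tkt, Ldha and Taldo1 at 829 ± 115, 800.5 ± 135 and 658 ± 78.8 TPM. The libraries of Pgls and Pkm overlapped, as did those of Tkt, Ldha and Taldo1, while all 3 libraries of Pkm lay above those of Tkt. The place of Pkm in this order holds for the mm9 tables only: 42.1% of its 50-base windows have a further copy in the genome, and in the mm10 tables of the Meox2-Cre cells it stood at 549 ± 4.02 TPM, below Tkt, Ldha and Taldo1 at 858, 705 and 649 TPM. Together the members made up 0.695% to 0.799% of each wild-type library and 0.820% and 0.837% of the Pax5-/- libraries, so that the groups did not overlap. The Meox2-Cre libraries, which were aligned to another genome build and are shown beside the others without a test, gave 0.678% to 0.712%.

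**Figure D1:**
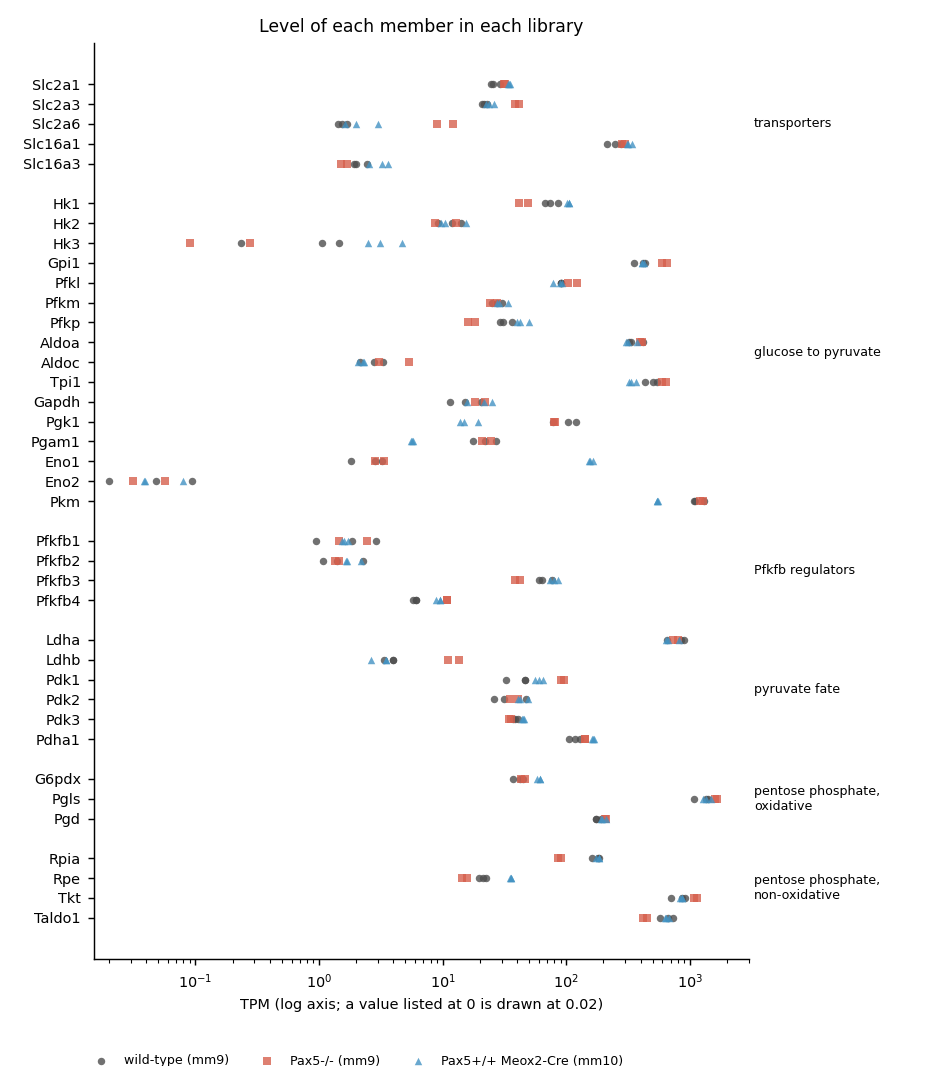
Level of each of the 38 members in TPM on a log axis, with 1 point for each of the 8 libraries. Genes are grouped by role. The members run from Eno2, below 0.1 TPM in every library, to Pgls and Pkm above 1000 TPM in wild-type cells, and Slc2a6 and Ldhb show Pax5-/- points well to the right of the others.

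Of the 38 members 36 passed the filter on low values (a mean above 1 TPM in at least 1 genotype), and Hk3 and Eno2 did not. At an adjusted p below 0.05 (limma on log2(TPM + 0.5), Benjamini-Hochberg over 12066 genes), 7 members were higher in Pax5-/- cells, against a background of 15.6% of all genes tested, and 6 were lower, against a background of 21.5%. The 7 members that rose were Slc2a6, Ldhb, Pdk1, Slc2a3, Pfkfb4, Gpi1 and Tkt, and the 6 that fell were Rpia, Pfkp, Hk1, Pfkfb3, Taldo1 and Rpe. Both counts are near the background, so the share of members called does not mark this gene list as different from other genes. The members' changes were also small: 3 of 36 exceeded 2-fold, while 18.5% of all genes did, and the median size of the change was 0.32 on the log2 scale against 0.39 over all genes. Only Slc2a6 and Ldhb met the stricter call of more than 3-fold and above 5 TPM, which 5.86% of all genes met. The libraries of the genotypes did not overlap for 14 members that were higher and 8 that were lower, where the background was 26.1% and 37.4% of genes.

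The median log2 fold change of the members was 0.17 and that of all genes tested was -0.12, so that the members stood 0.29 above the middle of all genes. Scaling the libraries by median ratios moved the median of all genes to -0.003. When the median of all genes is subtracted from each log2 fold change, 4 members that did not pass the test (Hk2, Pfkm, Pfkfb2 and Ldha) change from below to above 0. The split of calls depends on this scale: 7 higher and 6 lower as tested, 8 and 4 after median-ratio scaling, and 12 and 5 both after quantile normalization and after removal of the ribosomal protein genes. Across the 15 refits of the test, 5 members passed every time (Slc2a3, Slc2a6, Ldhb, Pdk1 and Rpia), and no member that passed in the test of all 5 libraries changed direction. Without Pax5-/- replicate 2 the counts were 4 higher and 1 lower, and without Pax5-/- replicate 1 they were 5 and 3. For 3 libraries against 2, the smallest p that an exact permutation test allows is 0.1, so the p-values rest on the spread shared across genes. The labels do not say whether libraries of a group came from separate mice.

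**Figure D2:**
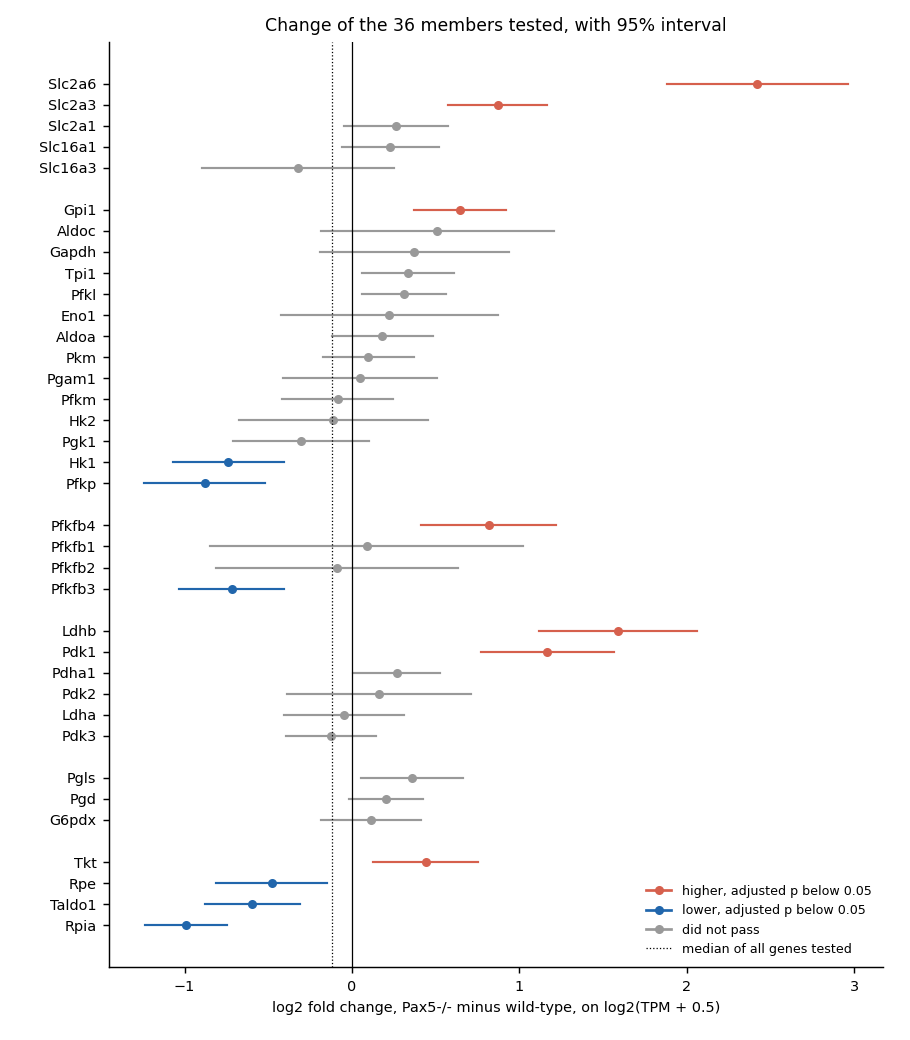
Log2 fold change of the 36 members tested, Pax5-/- minus wild-type, with bars for the 95% confidence interval of the limma fit and the dotted line at the median of all genes (-0.12). Slc2a6 (2.42), Ldhb (1.59) and Pdk1 (1.17) lie farthest to the right and Rpia (-0.99) farthest to the left.

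For 4 members that passed the test, and for Slc2a1 and Ldha, the most abundant wild-type isozymes beside Slc2a6 and Ldhb, the bases just before the annotated gene start are shown, because these stretches are where a motif for the hypoxia-inducible and Myc families of regulators can lie. The hypoxia response element, bound by Hif1a with Arnt, has the core ACGTG or GCGTG, and only the ACGTG form was searched. The E-box of Myc and Max is CACGTG, which contains ACGTG. Both ACGTG and CACGTG were searched on either strand. The sequences are 120 bases long, from RefSeq on GRCm38.p6, written 5′ to 3′ along the gene in lower case with each ACGTG or its reverse complement CACGT in capitals. Where RefSeq gave several starts, the most upstream is shown.
Slc2a6, chr2:27027999-27028118, minus strand: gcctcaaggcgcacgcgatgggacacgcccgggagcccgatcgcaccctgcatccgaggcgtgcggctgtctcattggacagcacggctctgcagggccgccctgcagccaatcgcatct
Slc2a1, chr4:119108625-119108744, plus strand: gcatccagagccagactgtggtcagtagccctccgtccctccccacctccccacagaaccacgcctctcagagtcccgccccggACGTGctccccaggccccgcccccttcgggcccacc
Ldhb, chr6:142507958-142508077, minus strand: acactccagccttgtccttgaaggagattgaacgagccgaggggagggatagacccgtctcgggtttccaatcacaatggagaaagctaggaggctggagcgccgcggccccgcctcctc
Ldha, chr7:46845684-46845803, plus strand: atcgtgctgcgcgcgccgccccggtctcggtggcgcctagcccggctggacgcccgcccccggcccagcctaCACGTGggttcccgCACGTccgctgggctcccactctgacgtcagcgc
Pdk1, chr2:71873104-71873223, plus strand: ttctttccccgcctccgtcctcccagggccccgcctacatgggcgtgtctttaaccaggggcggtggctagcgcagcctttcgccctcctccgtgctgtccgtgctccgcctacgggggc
Pfkfb3, chr2:11553930-11554049, minus strand: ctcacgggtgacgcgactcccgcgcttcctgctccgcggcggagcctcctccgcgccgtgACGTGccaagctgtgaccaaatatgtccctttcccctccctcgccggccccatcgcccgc

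No ACGTG lay in the 120 bases shown for Slc2a6, Ldhb or Pdk1, the 3 members with the largest rise. The letters GCGTG are present in the stretches of Slc2a6 and Pdk1, but this form was not searched. Slc2a1 held 1 match starting 36 bases before the gene, Pfkfb3 held 1 starting 60 bases before it, and Ldha held a CACGTG, which matches on both strands, and a further CACGT 34 bases before its start. Promoters were matched for 37 members (Slc2a3 was not in the table). In the 250 bases before the start, ACGTG occurred in 15 of the 37 members (40.5%) and in 18.5% of all 27025 genes. CACGTG occurred in 6 of 37 (16.2%) and in 6.86% of all genes, the 6 being Ldha, Pdk2, Pfkfb2, Pfkfb3, Pfkm and Slc16a1. A gene with several annotated starts counted if any of them matched, and members had more starts per gene (57 for 37 against 32851 for 27025). Per start, ACGTG occurred in 33.3% of member promoters and 16.6% of all promoters, and CACGTG in 10.5% and 6.02%. Among the members that passed the test in Pax5-/- cells, 1 of 12 matched promoters held ACGTG (Pfkfb3, which fell), and among those tested that did not pass, 13 of 23 did. A match describes these letters only and is no evidence of binding. The GCGTG form was not counted, so a lack of ACGTG does not show a lack of the hypoxia response element.

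Among the transporters 2 of 5 rose and none fell, beside 15.6% higher and 21.5% lower of all genes tested. Slc2a6 (GLUT6, a hexose transporter of internal membranes; chr2:26876883-26883518 in mm9, minus strand) was at 1.42, 1.69 and 1.55 TPM in wild-type and 9.01 and 12.2 TPM in Pax5-/- pro-B cells. Both Pax5-/- values lay far above all wild-type values, and the mean was 6.82-fold higher. On the log2 scale the change was 2.42 ± 0.23 (SE, adjusted p = 0.000272, limma), the largest of all members. Slc2a3 (GLUT3, a high-affinity glucose transporter of the plasma membrane) was at 21.6, 20.7 and 22.9 TPM in wild-type and at 41.8 and 38.5 TPM in Pax5-/- cells. The replicates of each genotype lay close together, and the log2 fold change was 0.87 ± 0.13 (SE, adjusted p = 0.00184, limma). Slc2a1 (GLUT1, the widespread basal glucose transporter) was at 24.5 to 29.1 TPM and at 31.3 and 32.1 TPM. The groups did not overlap, but the log2 fold change of 0.26 did not pass (95% interval -0.05 to 0.57; adjusted p = 0.155, limma). As a share of the 3 hexose transporters, Slc2a1 made up 51.1% to 55.9% in wild-type and 38.1% and 38.8% in Pax5-/- cells, while Slc2a6 went from 2.73% to 3.6% up to 11% and 14.7%. The sum of the 3 went from 46.9 to 52.1 TPM up to 82.03 and 82.75 TPM, with no overlap.

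The lactate carriers changed less. Slc16a1 (MCT1), which carries lactate and pyruvate across the plasma membrane, was at 215 to 279 TPM in wild-type and at 280.2 and 298 TPM in Pax5-/- cells (log2 fold change 0.23, 95% interval -0.06 to 0.52). Slc16a3 (MCT4), the carrier of strongly glycolytic cells, stayed between 1.49 and 2.46 TPM in these 5 libraries (log2 fold change -0.32, 95% interval -0.90 to 0.25). Neither passed the test.

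**Figure D3:**
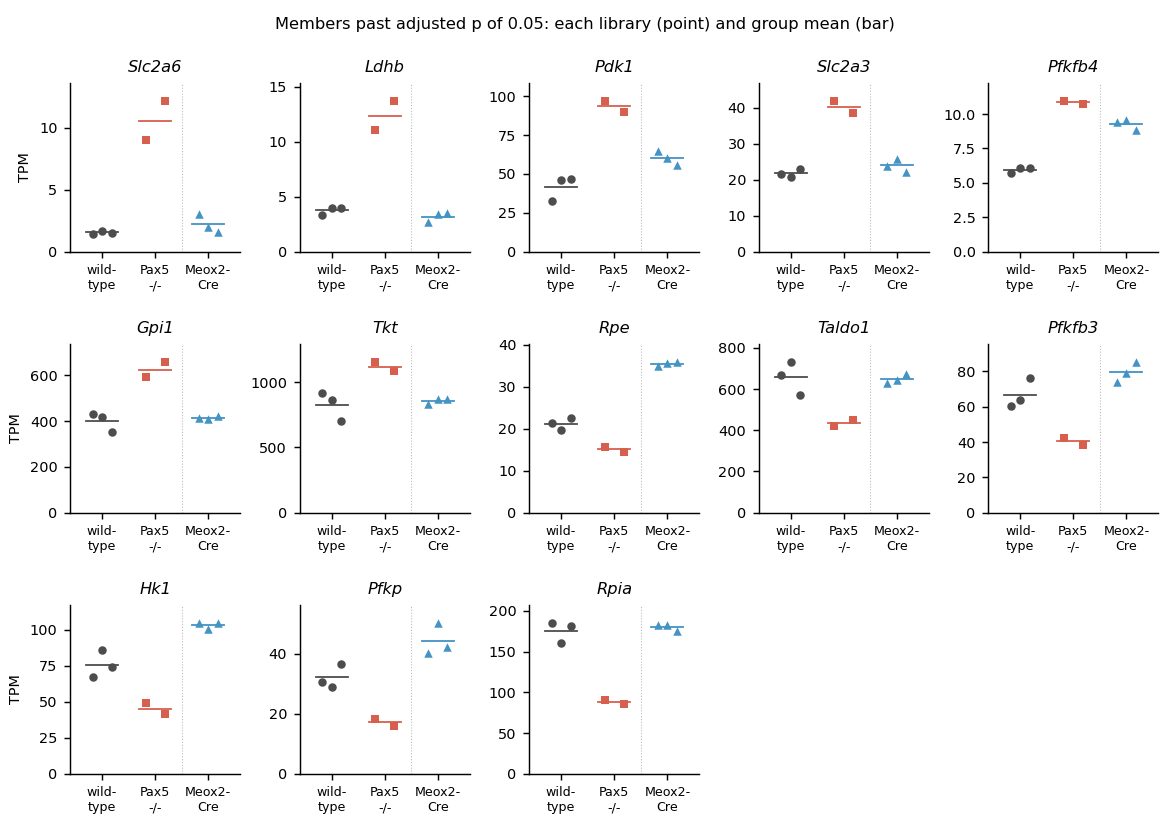
The 13 members with an adjusted p below 0.05, from the largest rise to the largest fall, with each library as a point, the group mean as a bar, and TPM on a linear axis from 0. The Pax5-/- points lie apart from the wild-type points for each gene, and the Meox2-Cre points, from another genome build and to the right of the dotted line, lie on the wild-type side of the Pax5-/- points.

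Of the 14 enzymes from glucose to pyruvate that were tested, 1 rose, 2 fell and 11 did not pass. Of all genes tested, 15.6% were higher and 21.5% lower. Hk1, the hexokinase that provides most hexokinase transcript in these cells, was at 67.2, 86.2 and 73.9 TPM in wild-type and at 48.8 and 41.4 TPM in Pax5-/- libraries. All wild-type values lay above both Pax5-/- values, and the log2 fold change was -0.74 ± 0.14 (SE, adjusted p = 0.00604, limma). Hk2, the isozyme inducible by growth signals, overlapped between the genotypes at 9.22 to 14.0 TPM and 8.75 and 12.9 TPM, so that summed hexokinase transcript went from 79.2 to 96.8 TPM down to 50.4 and 61.8 TPM. Hk3 stood at 0.23 to 1.44 TPM in wild-type and at 0.09 and 0.28 TPM in Pax5-/- libraries and was not tested.

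Gpi1, which converts glucose-6-phosphate into fructose-6-phosphate, was at 429.9, 419 and 353 TPM in wild-type and at 593 and 656 TPM in Pax5-/- libraries. Its log2 fold change was 0.64 ± 0.12 (SE, adjusted p = 0.00491, limma). At the next step Pfkp, the platelet-type phosphofructokinase, was at 30.6, 29.0 and 36.7 TPM in wild-type and at 18.4 and 15.98 TPM in Pax5-/- cells. This was a log2 fold change of -0.88 ± 0.15 (SE, adjusted p = 0.0042, limma), and its share of phosphofructokinase transcript was 19.8% to 23.4% in wild-type and 10.9% and 11.2% in Pax5-/- cells. Pfkl, the liver-type subunit, was at 90.0 to 91.4 TPM and at 104 and 122 TPM. Its log2 fold change of 0.31 did not pass (adjusted p = 0.0542, limma), although its share of the step went from 57.5% to 62.2% up to 70.5% and 74.2% with no overlap. The sum over Pfkl, Pfkm and Pfkp overlapped between the genotypes at 146 to 157 TPM and 147 and 164 TPM. The calls of Hk1, Gpi1 and Pfkp were each lost when Pax5-/- replicate 2 was left out (adjusted p = 0.0936, 0.0847 and 0.0789, limma).

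The later steps of the chain gave no call. Aldoa, aldolase, was at 321 to 418 TPM and at 399 and 409.8 TPM. Tpi1, triosephosphate isomerase, was at 432 to 541 TPM and at 601 and 637 TPM, and Pkm was at 1084 to 1302 TPM and at 1199 and 1283 TPM. Tpi1 did not overlap but missed the threshold (log2 fold change 0.34, adjusted p = 0.0576, limma). Aldoc, the brain-type aldolase, stayed below 5.5 TPM and under 1.3% of the aldolase transcript, and Eno2, the neuronal enolase, stayed below 0.1 TPM. The log2 fold changes of Aldoc, Gapdh, Pgk1, Pgam1 and Eno1 lay between -0.30 and 0.51, each with an interval that spans 0.

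For 4 of these genes the level itself is uncertain. Gapdh, usually among the most abundant transcripts of a cell, was listed at 11.5 to 20.5 TPM in wild-type libraries, and Eno1, the main enolase, at 1.82 to 3.21 TPM. The same 2 genes stood at 15.8 to 25.0 TPM and at 153 to 164 TPM in the Meox2-Cre libraries of the mm10 tables, while Pgk1 was at 78.7 to 120.5 TPM in wild-type and 13.8 to 19.2 TPM in Meox2-Cre cells. To describe how far reads of the members can be placed, each 50-base window of the longest coding transcript (GENCODE on mm9) was looked up in the mm9 genome. The share of windows with a further exact copy was 92.9% for Pgk1, 91.9% for Pgam1, 85.6% for Gapdh and 72.5% for Eno1, where the median over 22062 genes was 1.11% and 7.91% of genes exceeded 50%. Windows of Gapdh matched 233 further places. The study's methods name single reads of 50 bases and longer paired reads, and its mm10 comparison of pro-B cells was aligned as paired reads. Windows of 50 bases may therefore not describe the reads of the Meox2-Cre libraries. The part of read length in the differences between builds was not tested. The coding stretch of Gapdh with the most copies is shown because its 50 bases occur at 84 places in the genome.
Gapdh, chr6:125112916-125112965 in mm9, minus strand, coding exon: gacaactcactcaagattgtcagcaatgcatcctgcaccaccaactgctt

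Reads of such stretches have no single place, and the counting program leaves reads with several places out by default. For these 4 genes the level may not be compared with that of other genes or between builds. Their ratio between genotypes is given within the mm9 tables only, and the part of the further copies in it was not tested. Of the 13 members that passed the test, 3 had more than 10% of windows with a further copy: Ldhb (34.5%), Gpi1 (32.5%) and Taldo1 (13.9%), and each had 1 further place in the genome. In all, 8 members carry an overlap mark in the mm9 tables that the sources used here do not explain. They are Pfkp, Rpe and Tkt, which passed the test, Eno1, whose level is uncertain, and Hk3, Pfkfb2, Tpi1 and Pdha1.

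**Figure D4:**
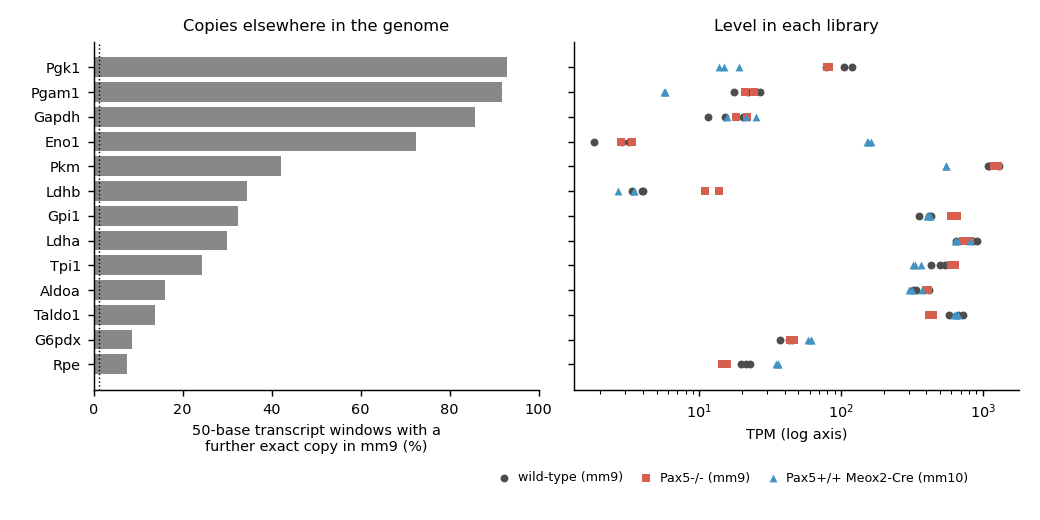
Left, percent of 50-base transcript windows with a further exact copy in mm9 for the members above 5%, with the median of all genes (1.11%) as a dotted line. Right, TPM of the same genes in each library on a log axis. For Pgk1, Pgam1, Eno1, Pkm, Tpi1, G6pdx and Rpe the wild-type mean lies farther from the Meox2-Cre mean (mm10) than from the Pax5-/- mean. The same holds for Gapdh and Ldha, where the wild-type and Meox2-Cre libraries overlap. G6pdx and Rpe have only 8.57% and 7.47% of windows with a further copy.

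The Pfkfb enzymes make and break fructose-2,6-bisphosphate, the strongest activator of phosphofructokinase. Here 1 of 4 rose and 1 fell, beside 15.6% higher and 21.5% lower of all genes tested. Pfkfb3, the isozyme with the highest ratio of kinase to phosphatase activity, was at 60.2, 63.9 and 76.4 TPM in wild-type and at 42.2 and 38.4 TPM in Pax5-/- libraries. All Pax5-/- values lay below the wild-type values, with a log2 fold change of -0.72 ± 0.13 (SE, adjusted p = 0.00549, limma). Pfkfb4 moved the other way, from 5.73, 6.06 and 6.04 TPM to 10.9 and 10.8 TPM, a log2 fold change of 0.82 ± 0.17 (SE, adjusted p = 0.00888, limma). Pfkfb3 remained the main isozyme, but its share of Pfkfb transcript was 87.2% to 88.4% in wild-type and 75.4% and 72.4% in Pax5-/- cells, while that of Pfkfb4 was 6.90% to 8.38% and 19.5% and 20.3%. Pfkfb1 and Pfkfb2 stayed between 0.94 and 2.92 TPM and overlapped. Neither call survived the loss of either Pax5-/- library (highest adjusted p = 0.0864 for Pfkfb3 and 0.109 for Pfkfb4, limma).

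**Figure D5:**
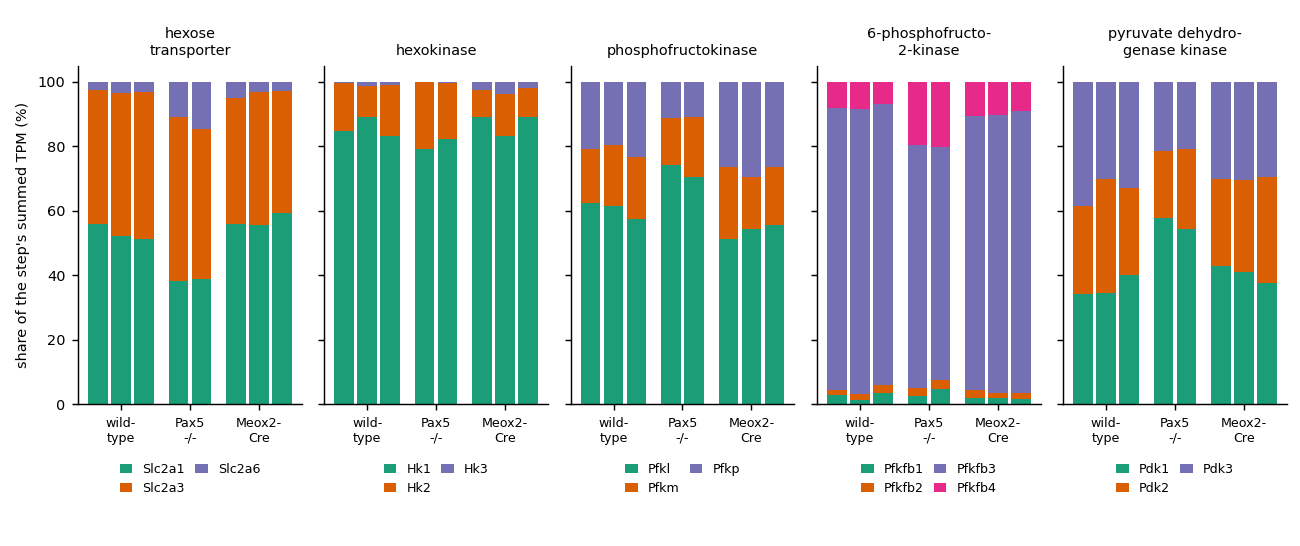
Share of each isozyme in the summed TPM of its step, in percent, with 1 stacked bar per library. The Pax5-/- bars show more Slc2a6, Pfkl, Pfkfb4 and Pdk1 and less Slc2a1, Pfkp and Pfkfb3 than the bars of the other groups.

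Among the genes that set the fate of pyruvate 2 of 6 rose and none fell, beside 15.6% higher and 21.5% lower of all genes tested. Ldhb encodes the heart-type subunit of lactate dehydrogenase, which favours the turn of lactate into pyruvate (chr6:142438769-142456477 in mm9, minus strand). It was at 3.34, 3.95 and 3.98 TPM in wild-type and at 11.02 and 13.7 TPM in Pax5-/- libraries. The groups lay well apart, with a mean 3.29-fold higher and a log2 fold change of 1.59 ± 0.20 (SE, adjusted p = 0.00101, limma). Ldha, the muscle-type subunit, was at 648 to 904 TPM and at 726 and 808 TPM (log2 fold change -0.05, 95% interval -0.41 to 0.31), so that Ldha still made up 98.2% and 98.7% of lactate dehydrogenase transcript in Pax5-/- cells. The change of Ldhb lay close to the 3-fold limit, and the call at 3-fold was lost at a pseudocount of 1 TPM, without wild-type replicate 1 and without Pax5-/- replicate 2.

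Pdk1, a kinase that switches off the pyruvate dehydrogenase complex, was at 32.7, 46.2 and 46.7 TPM in wild-type and at 96.8 and 90.1 TPM in Pax5-/- cells. Both Pax5-/- values lay far above all wild-type values, and the log2 fold change was 1.17 ± 0.17 (SE, adjusted p = 0.00192, limma). Its sister kinases did not follow: Pdk2 was at 26.1 to 46.9 TPM and at 35.0 and 41.0 TPM, and Pdk3 at 36.8 to 40.5 TPM and at 35.9 and 34.6 TPM. The share of Pdk1 among the 3 kinases thus went from 34.2% to 40.0% up to 57.7% and 54.4%. Pdha1, a catalytic subunit of the complex that these kinases phosphorylate, was at 106 to 129 TPM and at 141 and 142 TPM, a log2 fold change of 0.27 that did not pass (adjusted p = 0.098, limma).

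In the oxidative pentose phosphate arm none of 3 genes passed, though all had positive values. G6pdx, the dehydrogenase that commits glucose-6-phosphate to the pathway, was at 37.0 to 44.9 TPM and at 46.2 and 43.5 TPM (log2 fold change 0.11, 95% interval -0.18 to 0.41). Pgls was at 1090.4 to 1392 TPM and at 1609 and 1658 TPM (0.36, 95% interval 0.05 to 0.66; adjusted p = 0.0665, limma), and Pgd, which releases ribulose-5-phosphate, was at 173 to 191 TPM and at 208 and 205 TPM (0.20; adjusted p = 0.129, limma). Pgls and Pgd did not overlap between the genotypes.

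In the non-oxidative arm 3 of 4 genes fell and 1 rose, beside 21.5% and 15.6% of all genes tested. Rpia, the isomerase that makes ribose-5-phosphate from ribulose-5-phosphate (chr6:70715714-70742226 in mm9, minus strand), was at 185, 161 and 181 TPM in wild-type and at 91.2 and 85.1 TPM in Pax5-/- cells. Its level was thus 1.99-fold lower, with a log2 fold change of -0.99 ± 0.10 (SE, adjusted p = 0.000438, limma), the largest fall among the members. Rpe, the epimerase that turns the same substrate into xylulose-5-phosphate, was at 21.3, 19.8 and 22.6 TPM and at 15.7 and 14.4 TPM (log2 fold change -0.48 ± 0.14, SE, adjusted p = 0.0335, limma). Taldo1, transaldolase, was at 669, 730.1 and 574 TPM and at 419 and 448 TPM (-0.59 ± 0.12, SE, adjusted p = 0.00807, limma). Tkt, transketolase, stood against these, at 921, 866 and 700.1 TPM in wild-type and at 1153 and 1084 TPM in Pax5-/- cells (0.44 ± 0.13, SE, adjusted p = 0.0365, limma). The sum of the 4 genes overlapped between the genotypes, at 1478 to 1797 TPM and 1631 and 1679 TPM. Rpe and Tkt passed in 9 and Taldo1 in 12 of the 15 refits. The calls of all 3 were lost under median-ratio scaling, with all 5 libraries kept. That of Rpe was lost also under quantile normalization and without ribosomal protein genes, and that of Tkt without the filter on low values. All 3 calls were lost as well when either Pax5-/- library was left out, which leaves 1 library in that group. Across the refits the log2 fold changes were -0.54 to -0.37 for Rpe, 0.32 to 0.56 for Tkt and -0.69 to -0.48 for Taldo1.

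Summed by role, transporters stood at 265 to 333 TPM in wild-type and 365 and 382 TPM in Pax5-/- cells. The enzymes from glucose to pyruvate stood at 2648 to 3069 TPM and 3194 and 3268 TPM. Their sum takes Gapdh, Pgk1, Pgam1 and Eno1 at their listed, uncertain levels. The oxidative arm stood at 1309 to 1603 TPM and 1863 and 1907 TPM. The Pfkfb enzymes were lower, at 68.9 to 87.6 TPM and 53.1 and 55.9 TPM, and the pyruvate genes overlapped at 891 to 1122 TPM and 1047 and 1127 TPM.

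The Meox2-Cre pro-B cells give a second look at cells that have Pax5, with the limits that their tables were normalized separately and that markers of other cells stood higher in them. Summed myeloid markers were at 439.5 to 1217 TPM and summed erythroid markers at 213.5 to 306 TPM, each above the range of both mm9 groups, and the part of these cells in the levels was not tested. For all 13 members that passed the test, the 3 Meox2-Cre libraries lay on the wild-type side of both Pax5-/- libraries. The share of all called genes for which this holds was not determined, so the count does not set these members apart. Being on that side does not mean a level near wild-type. Rpe, at 35.0, 35.7 and 35.8 TPM, lay farther from wild-type (19.8 to 22.6 TPM) than the Pax5-/- libraries did (15.7 and 14.4 TPM). Slc2a6 was at 3.01, 2.00 and 1.63 TPM, Ldhb at 2.65, 3.45 and 3.46 TPM, and Rpia at 183, 183 and 175 TPM. Pfkfb4, at 9.43, 9.58 and 8.81 TPM, lay nearer to the Pax5-/- level (10.9 and 10.8 TPM) than to wild-type (5.73 to 6.06 TPM). Pdk1 lay between, at 64.7, 60.1 and 55.6 TPM. Shares within a step, which do not depend on the total of a table, also lay on the wild-type side: Slc2a1 made up 55.7% to 59.2% of the hexose transporters and Pfkfb3 84.8% to 87.6% of the Pfkfb transcript.

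Genes of the same pathways that are not members were followed in 7 lists of 94 genes, of which 74 passed the filter, 14 rose, 17 fell and 43 did not pass. Both counts are near the background of 15.6% higher and 21.5% lower over all genes tested. The number called, 31 in all, was 16 without Pax5-/- replicate 1 and 13 without Pax5-/- replicate 2. Of the other transporters 1 of 7 tested rose and 1 fell. The rise was Emb (embigin, a chaperone of monocarboxylate carriers at the membrane), which went from 33.3, 32.7 and 25.8 TPM to 139 and 148 TPM, a log2 fold change of 2.22 ± 0.14 (SE, adjusted p = 4.1e-05, limma). Of the other glycolytic enzymes 4 of 15 rose and 4 fell. Pgm2, of the phosphoglucomutase family, rose by 1.15 on the log2 scale (25.9 to 58.0 TPM in the means). Khk, ketohexokinase, rose by 1.15 (31.7 to 70.0 TPM). Pgm2l1, which makes glucose-1,6-bisphosphate, had a change of -1.61 (14.0 to 4.22 TPM). Pgam2, the muscle phosphoglycerate mutase, had one of -1.03 (7.09 to 3.24 TPM).

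Of 10 tested genes that bring pyruvate into mitochondria none rose and 2 fell, with Pcx, pyruvate carboxylase, at 9.11 TPM in the wild-type mean and 3.90 TPM in the Pax5-/- mean (log2 fold change -1.13). In gluconeogenesis 2 of 3 tested rose and 1 fell: Fbp1, fructose-1,6-bisphosphatase, went from 6.92 to 2.89 TPM (-1.12). In the other pentose phosphate genes 1 of 6 rose and none fell. In the serine, glycerol and glycogen branches 4 of 17 rose and 3 fell. Gpd1l, a glycerol-3-phosphate dehydrogenase, was at 238, 216 and 224 TPM in wild-type and at 68.1 and 59.9 TPM in Pax5-/- cells, a log2 fold change of -1.81 ± 0.10 (SE, adjusted p = 2.6e-05, limma). The glycogen phosphorylases moved in opposite directions: Pygm, the muscle form, rose by 1.64 (16.3 to 51.5 TPM in the means) and Pygl, the liver form, had a change of -1.12 (18.03 to 7.99 TPM).

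Among 16 tested regulators of these pathways 2 rose and 6 fell, beside 15.6% and 21.5% of all genes. Egln3, an oxygen-dependent prolyl hydroxylase that marks Hif1a for destruction and is itself a known hypoxia target, went from 12.7, 10.4 and 8.23 TPM to 77.5 and 76.8 TPM, a log2 fold change of 2.85 ± 0.19 (SE, adjusted p = 4.9e-05, limma). Hif1a, the hypoxia-inducible factor, fell from 31.7, 33.5 and 34.8 TPM to 19.5 and 18.5 TPM, a change of -0.80 ± 0.12 (SE, adjusted p = 0.00266, limma). Myc, a known activator of glycolytic genes, was at 197, 214 and 212 TPM in wild-type and at 520.3 and 456 TPM in Pax5-/- cells, a change of 1.23 ± 0.10 (SE, adjusted p = 0.000133, limma). Txnip, an inhibitor of glucose uptake that responds to glucose itself, was at 96.6, 162 and 169 TPM and at 78.1 and 83.2 TPM (-0.77 ± 0.23, SE, adjusted p = 0.0336, limma). The wild-type libraries of Txnip differed among themselves by more than those of the other 3 regulators named.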

How the data were processed

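RNA of sorted pro-B cells was selected for poly(A) and sequenced by the authors. The deposited values are TPM, computed by the authors from featureCounts (1.5.0) counts, with reads aligned to mm9 by TopHat (1.4.1a) for wild-type and Pax5-/- cells and to mm10 by STAR (2.4.2a) for Meox2-Cre cells (versions per the labels' processing notes and the study's methods). TPM hold no read totals, so depth is unknown. From the spacing of low values, relative depth was 0.855 to 1.54 among the mm9 libraries; low genes are the least precise. The samples were grouped by genotype label.

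Here genes whose mean exceeded 1 TPM in either genotype were tested on log2(TPM + 0.5) with limma (3.58.1, R 4.3.3; eBayes with trend, two-sided, Benjamini-Hochberg over 12066 genes) in place of the study's count test. A fold change on this scale understates that of low genes. The stricter call also asks for over 3-fold and above 5 TPM. On simulated data the fit was checked. The mm10 tables stayed out of the fit. Named genes were all members past adjusted p 0.05; related genes past 2-fold and 5 TPM, and Hif1a, Myc and Txnip. Alternatives were other pseudocounts (0.1, 1), filters, scalings, fits and leaving out each library. Members and lists were chosen with earlier results of these data known. Promoters came from RefSeq (GRCm38.p6), matched by symbol, and windows from GENCODE on mm9. ChIP-seq samples of the series were not analysed here. One marker of the sort is not reported here.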

Additional observations from a re-analysis of the deposited data

How the results depend on the processing

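All changes of direction were sought in 15 refits of the test for each member, and none was found among results that had passed; 5 of the 13 calls held in every refit and 8 were lost in at least 1. The count of members past 3-fold (2) became 1 at a pseudocount of 1 TPM and 0 when limma's treat tested against 3-fold itself (1 member, Slc2a6, had an unadjusted p below 0.05; its adjusted p was 0.127). The count of higher members (7) became 12 under quantile normalization and 12 without ribosomal protein genes. The median log2 fold change of the members (0.17) became 0.29 under median-ratio scaling, 0.27 under quantile normalization and 0.25 without ribosomal protein genes. Members gained under these scalings or without 1 library were Pfkl, Tpi1, Pdha1, Pgls, Pgd and Pgk1. At an adjusted p below 0.01 the related genes called (31) became 19. The cause of these shifts was not tested. Leaving out each library in turn gave 4 to 8 higher members, 1 to 7 lower members, 1 to 2 past 3-fold, a median of 0.10 to 0.19 and 13 to 36 related genes; the lowest counts came without Pax5-/- replicate 2 (4 higher, 1 lower, 13 related), then without Pax5-/- replicate 1 (5, 3 and 16). A lone library was then assumed to vary like the others. Depth is unknown, which limits the genes below a few TPM most. No paired analysis was possible because no label numbers the replicates.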
